A study of Rattus norvegicus with 56 samples.

Results

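Microglia are the resident macrophages of the brain, and with the macrophages of its borders they clear debris, sense damage and prune synapses. In the resting state they express receptors for purines and for colony-stimulating factor, while in ageing and disease a TREM2- and TYROBP-dependent programme of lysosomal, phagocytic and lipid-handling genes is known to be raised. The genes described here were a list of 36 microglia and macrophage genes, of which 35 had a probe on the array, among 16581 genes with a symbol in all. The members were taken as every non-control probe whose transcript accession mapped through RefSeq to a listed symbol, and the brightest probe stood for a gene with several. There was no probe for Itgax, an integrin subunit of activated microglia.

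RNA came from the hippocampus and the parietal cortex of 24 male Long-Evans rats, 8 young (6 to 7 months) and 16 aged (26 to 27 months). Aged rats had been classed by a water maze task as aged unimpaired (AU, 9 rats) or aged impaired (AI, 7 rats). Under isoflurane, each rat received intermittent theta burst stimulation (iTBS), a magnetic brain stimulation given as repeated short bursts of pulses, or sham treatment with the coil held away from the animal, and tissue was taken 48 h later. The 6 groups of each region held 4 young sham, 4 young iTBS, 4 AU sham, 5 AU iTBS, 4 AI sham and 3 AI iTBS rats. These numbers are those of the labels, and the study's methods give fewer aged rats for this experiment. All groups also received Dexmedetomidine, a sedative, and Antisedan to reverse it, each at 0.035 mg/kg in young and 0.03 mg/kg in aged rats, so age and these doses cannot be told apart.

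Each value below is a normalized log2 signal, the log2 signal of a probe relative to the mean of its array after a z-score transformation, with 1 SD put back to the average SD over arrays. A level of 0 is therefore the array mean, negative levels lie below it, and levels of different probes cannot be ranked. A probe was called changed at a Benjamini-Hochberg adjusted p under 0.05 in limma across all tested probes, which were 32501 in hippocampus and 32613 in cortex. The arrays were whole tissue, so fewer microglia and less RNA per microglial cell cannot be told apart. Between 59.3% and 69.7% of the probes of an array were well above background. The 24 animals of a region set the precision, and nothing in the labels gives a further level of replication.

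Among the arrays, 1 hippocampal array carried labels that name a young sham rat in one place and an aged iTBS rat in another, and it was placed in no group. A repeat array of the cortex of AI iTBS rat 2 did not match its own first array over the 500 most variable probes (r = -0.0046) and matched AI sham rat 2 better (r = 0.532), so it was left out. With that repeat averaged in, no count of called members moved by over 1.5 times. All 24 first cortical arrays matched the hippocampus of their own animal best. Known hippocampal transcripts marked the hippocampal samples, with C1ql2 and Zbtb20 higher there than in cortex in 24 of 24 rats, and Rorb, Lamp5 and Tbr1 were lower there in 24 of 24. Exceptions were Prox1, a dentate gyrus marker, higher in hippocampus in 9 of 24 rats, and Rspo1, used as a cortical marker, higher in hippocampus in 6 of 24.

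In each region 33 members were tested. Cst7, a cysteine protease inhibitor of activated microglia, was well above background in 0 hippocampal and 1 cortical sample. Cybb, the catalytic subunit of the phagocyte oxidase, was detected in 1 hippocampal and 3 cortical samples and was tested only in cortex. Those 3 samples were all from AU iTBS rats, so Cybb passed the filter through that group alone. Cd86, a co-stimulatory molecule, was detected in 11 hippocampal samples and in 1 cortical sample and was tested only in hippocampus. The mannose receptor Mrc1 was detected in 3 samples of each region, so its level is close to the limit of detection. Those samples were all from aged rats (0 of 8 young), so Mrc1 passed the filter through aged rats alone. It stays in the counts of tested members. The transcription factor Irf8 was detected in 21 and 16 samples, and the receptor tyrosine kinase Axl in 24 and 15.

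The regulatory sequence upstream of these genes is shown first as a description, and its part in the comparisons below was not tested. PU.1, the product of Spi1, is the myeloid factor a known regulator of microglial genes, and its core motif GAGGAA, which reads as TTCCTC on the other strand, was searched in the 250 bases before the start of each gene in RefSeq (GRCr8). It stood on either strand in 7812 of 33469 promoters (23.3%), in 16 of the 25 members that the table holds (64%), and in 6 of the 8 such members that were called with age in hippocampus (75%). Among the identity genes it stood in 2 of 5 (40%). These counts describe letters and not sites of binding. The promoters of the lysosomal glycoprotein gene Cd68 (chr10:54882442-54882691, minus strand), the lipid receptor gene Trem2 (chr9:20151780-20152029, minus strand), the lysosomal membrane gene Laptm5 (chr5:148371630-148371879, plus strand) and the cathepsin gene Ctss (chr2:185775146-185775395, plus strand) are shown 5′ to 3′ because these members were higher in aged hippocampus and hold the core, which is in capitals.
Cd68: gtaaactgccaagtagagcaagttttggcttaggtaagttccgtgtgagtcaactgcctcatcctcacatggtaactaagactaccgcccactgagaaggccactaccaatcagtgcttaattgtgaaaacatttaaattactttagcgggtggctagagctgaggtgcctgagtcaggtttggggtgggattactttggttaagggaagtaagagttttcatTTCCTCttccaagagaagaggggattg
Trem2: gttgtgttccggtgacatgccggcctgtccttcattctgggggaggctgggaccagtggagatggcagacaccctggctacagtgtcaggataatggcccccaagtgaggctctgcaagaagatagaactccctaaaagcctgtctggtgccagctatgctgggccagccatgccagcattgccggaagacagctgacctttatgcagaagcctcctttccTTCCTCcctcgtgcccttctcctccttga
Laptm5: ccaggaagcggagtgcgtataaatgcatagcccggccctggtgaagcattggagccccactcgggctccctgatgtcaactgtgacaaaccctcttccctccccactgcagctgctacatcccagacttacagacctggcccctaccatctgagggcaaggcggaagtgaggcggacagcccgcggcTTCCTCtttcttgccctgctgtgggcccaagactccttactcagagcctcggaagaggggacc
Ctss: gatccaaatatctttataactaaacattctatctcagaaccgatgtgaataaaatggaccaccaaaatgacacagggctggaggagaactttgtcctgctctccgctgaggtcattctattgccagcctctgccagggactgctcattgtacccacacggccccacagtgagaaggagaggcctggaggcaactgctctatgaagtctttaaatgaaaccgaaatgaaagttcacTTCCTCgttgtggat
The core began 27 bases before the start of Cd68, 29 before Trem2, 63 before Laptm5 and 15 before Ctss. Clec7a and Ncf1, which were also higher with age, had no such core in this window. Tyrobp, Itgb2, Fcer1g and Fcgr2b were not in the table.

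The first comparison asked how the members differ with age. In the hippocampus 12 of 33 members (36.4%) were called, all higher in aged rats, when the mean of the 4 aged groups was set against the mean of the 2 young groups. Over all probes 0.511% were called, and 0.422% were called higher in aged. The median difference of the members was 0.35 on the log2 scale and 27 of 33 were positive, while over all probes the median was -0.0099 and 47.6% were positive. At an unadjusted p under 0.05, 17 members were higher and 1 lower, against 13.3% of all probes in either direction. The called members were lysosomal, phagocytic and receptor genes. None of the 9 identity and survival genes were called.

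Cd68, a glycoprotein of lysosomes and endosomes that marks phagocytic cells, had the smallest p. Its hippocampal level was 1.65, 1.35, 1.74 and 1.84 in young sham and 1.53, 1.87, 1.75 and 1.59 in young iTBS rats. In AU sham rats it was 1.91, 2.21, 2.18 and 2.34, and in AU iTBS rats 2.24, 2.24, 2.21, 2.36 and 2.63. In AI sham rats it was 2.91, 2.27, 2.86 and 2.56, and in AI iTBS rats 2.32, 2.64 and 2.94. Every aged rat lay above every young rat, and the AI groups held the highest values. The difference was 0.78 (SE 0.0967), a 1.72-fold higher signal, with an adjusted p of 0.000491 in limma.

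Trem2, the lipid-sensing receptor of microglia, had hippocampal levels of 5.43, 5.26, 5.45 and 5.50 in young sham and 5.37, 5.53, 5.68 and 5.30 in young iTBS rats. The AU sham rats had 5.78, 5.98, 5.93 and 5.71, and the AU iTBS rats 5.79, 6.13, 5.77, 5.92 and 5.96. The AI sham rats had 5.93, 5.70, 5.78 and 5.82, and the AI iTBS rats 6.23, 6.02 and 6.21. The highest young rat (5.68) sat just under the lowest aged rat (5.70), so the groups met but did not overlap. The difference was 0.49 (SE 0.0631, 1.40-fold, adjusted p = 0.000673).

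Ncf1, the p47 organizer of the phagocyte oxidase, was the third member without overlap. Its hippocampal level ran from 3.24 to 3.64 in the 8 young rats (median 3.43) and from 3.75 to 4.52 in the 16 aged rats (median 3.88). The difference was 0.54 (SE 0.0736, 1.45-fold, adjusted p = 0.000992). A second probe for Ncf1 differed by only 0.14 (adjusted p = 0.534), so the call rests on the brighter probe. Of all 32501 probes, 20 had every aged rat above every young rat (0.0615%), and 3 of those were the members Cd68, Trem2 and Ncf1.

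Tyrobp, the adaptor through which TREM2 signals, ran from 5.18 to 5.98 in young rats (median 5.70) and from 5.88 to 6.73 in aged rats (median 6.32). In 15 of 16 aged rats it was above the highest young rat. The difference was 0.71 (SE 0.0933, 1.64-fold, adjusted p = 0.000778). Fcer1g, the related signalling chain of Fc receptors, ran from 5.06 to 5.78 in young rats (median 5.51) and from 5.42 to 6.40 in aged rats (median 5.96), with 15 of 16 aged rats above the highest young rat. It was higher by 0.50 (SE 0.0865, adjusted p = 0.00800). Fcgr2b, the inhibitory receptor for immunoglobulin G, had 13 of 16 aged rats above the highest young rat and was higher by 0.88 (SE 0.170, 1.84-fold, adjusted p = 0.0195). Its young values spread from 0.88 to 2.42 and its aged values from 2.23 to 3.27. Cd14, the lipopolysaccharide co-receptor, was the only tested gene of this role not called in hippocampus (0.14, adjusted p = 0.543).

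Among the lysosome and oxidative burst genes, 3 of 4 tested members were called. Besides Cd68 and Ncf1 this was Ctss, the cysteine protease cathepsin S, which ran from 7.41 to 7.93 in young rats (median 7.58) and from 7.65 to 8.39 in aged rats (median 7.95). It was higher by 0.38 (SE 0.0772, 1.31-fold, adjusted p = 0.0241), with 11 of 16 aged rats above the highest young rat. Lysozyme, Lyz2, was 0.39 higher with 12 of 16 aged rats above the highest young rat, and did not pass the threshold (adjusted p = 0.123).

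The shared myeloid genes gave 3 calls of 7, and all 7 differences were positive (0.27 to 0.57). Itgb2, the beta chain of the leukocyte integrins, ran from 1.53 to 2.30 in young rats (median 1.94) and from 2.08 to 2.85 in aged rats (median 2.43), and was higher by 0.57 (SE 0.0979, adjusted p = 0.00759). Its partner Itgam, the alpha chain known as CD11b, was higher by 0.49 (SE 0.110, adjusted p = 0.0496) and stood at the threshold. A second Itgam probe differed by 0.44 (adjusted p = 0.345), so the call rests on the brighter probe. The lysosomal membrane protein gene Laptm5 ran from 5.69 to 6.37 and from 6.22 to 6.76 (medians 6.06 and 6.44), a difference of 0.45 (SE 0.0854, adjusted p = 0.0174). Each of these had 11 or 12 of 16 aged rats above the highest young rat. Aif1, the calcium-binding protein IBA1 used to stain microglia, differed by 0.35 (adjusted p = 0.0949), the phosphatase Ptprc, or CD45, by 0.48 (adjusted p = 0.137), the tetraspanin Cd53 by 0.45 (adjusted p = 0.135) and the signalling adaptor Plek by 0.27 (adjusted p = 0.458).

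The activation genes gave 2 calls of 5. Clec7a, the beta-glucan receptor dectin-1, had levels of -2.41 to -1.40 in young rats (median -1.88) and -1.88 to 0.05 in aged rats (median -0.95). The ranges overlapped, with 12 of 16 aged rats above the highest young rat and the highest values in AI rats and AU iTBS rats. The difference was 0.96 (SE 0.192, 1.95-fold, adjusted p = 0.0232). Gpnmb, a glycoprotein of lipid-laden phagocytes, ran from 2.97 to 3.72 in young rats (median 3.25) and from 3.33 to 4.45 in aged rats (median 3.86), a difference of 0.54 (SE 0.0951, 1.45-fold, adjusted p = 0.00879).

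Lgals3, which encodes galectin-3, had the largest difference of any member in this comparison (1.01, SE 0.242, 2.02-fold) but was not called (adjusted p = 0.0654). Its levels ran from 2.53 to 3.81 in young rats (median 2.69) and from 3.07 to 5.25 in aged rats (median 3.75). A young sham rat at 3.81 and the wide aged range gave overlap in 8 of 16 aged rats. The second Lgals3 probe differed by 0.95 (adjusted p = 0.0911). Axl differed by -0.29 (adjusted p = 0.438) and Cd86 by 0.18 (adjusted p = 0.738), and the latter was near background.

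The identity and survival genes showed a different picture, with a median difference of -0.0045 and 4 positive and 5 negative values. P2ry12, the purine receptor of resting microglia, ran from 5.22 to 5.53 in young and from 5.15 to 6.21 in aged hippocampus and differed by 0.10 (SE 0.0861, adjusted p = 0.621). Tmem119, a surface protein used to tell microglia from other macrophages, ran from 2.34 to 3.42 and from 2.37 to 3.29 and differed by -0.12 (SE 0.131, adjusted p = 0.723). Csf1r, the receptor that microglia need to survive, differed by 0.04 (SE 0.0679, adjusted p = 0.828). The young and aged ranges of P2ry12 and Tmem119 overlapped. The organic anion transporter gene Slco2b1 was the only member lower at an unadjusted p under 0.05 (-0.18, SE 0.0728, adjusted p = 0.306), and 0 of 16 aged rats were above the highest young rat. The lysophospholipid receptor Gpr34 differed by 0.17 and the lipid phosphatase Inpp5d by -0.05. The transcription factors differed by 0.14 (Sall1), -0.0045 (Irf8) and -0.20 (Spi1). All of these had an adjusted p above that of Slco2b1. The perivascular macrophage genes gave 0 calls of 3, with differences of 0.20 for the haemoglobin scavenger Cd163 and 0.11 for the hyaluronan receptor Lyve1. Mrc1 passed the filter only through aged rats, so its difference with age is not given.

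**Figure D1:**
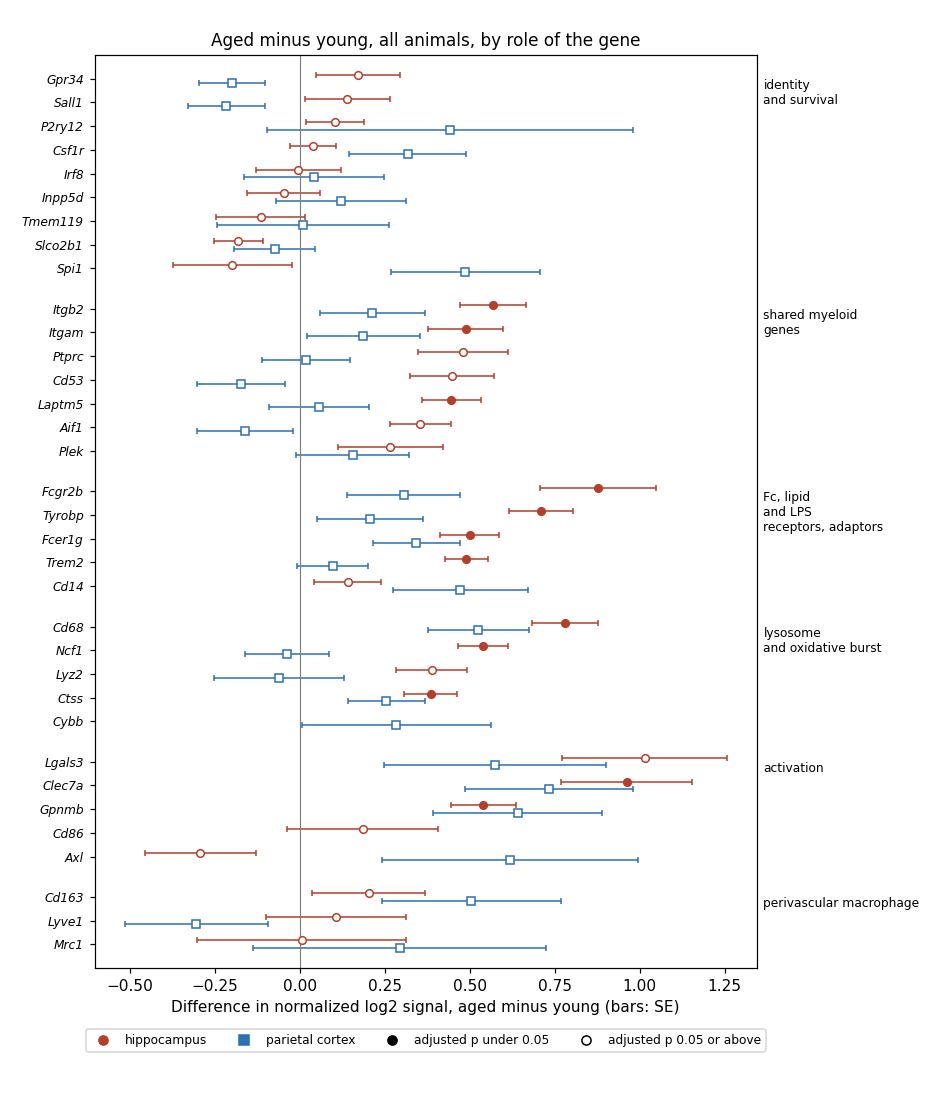
Difference between aged and young rats in normalized log2 signal for each tested member, with bars of 1 SE. Circles are hippocampus and squares are parietal cortex, filled where the adjusted p was under 0.05. In hippocampus 12 members are filled, all to the right of 0, and 0 are filled in cortex.

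**Figure D2:**
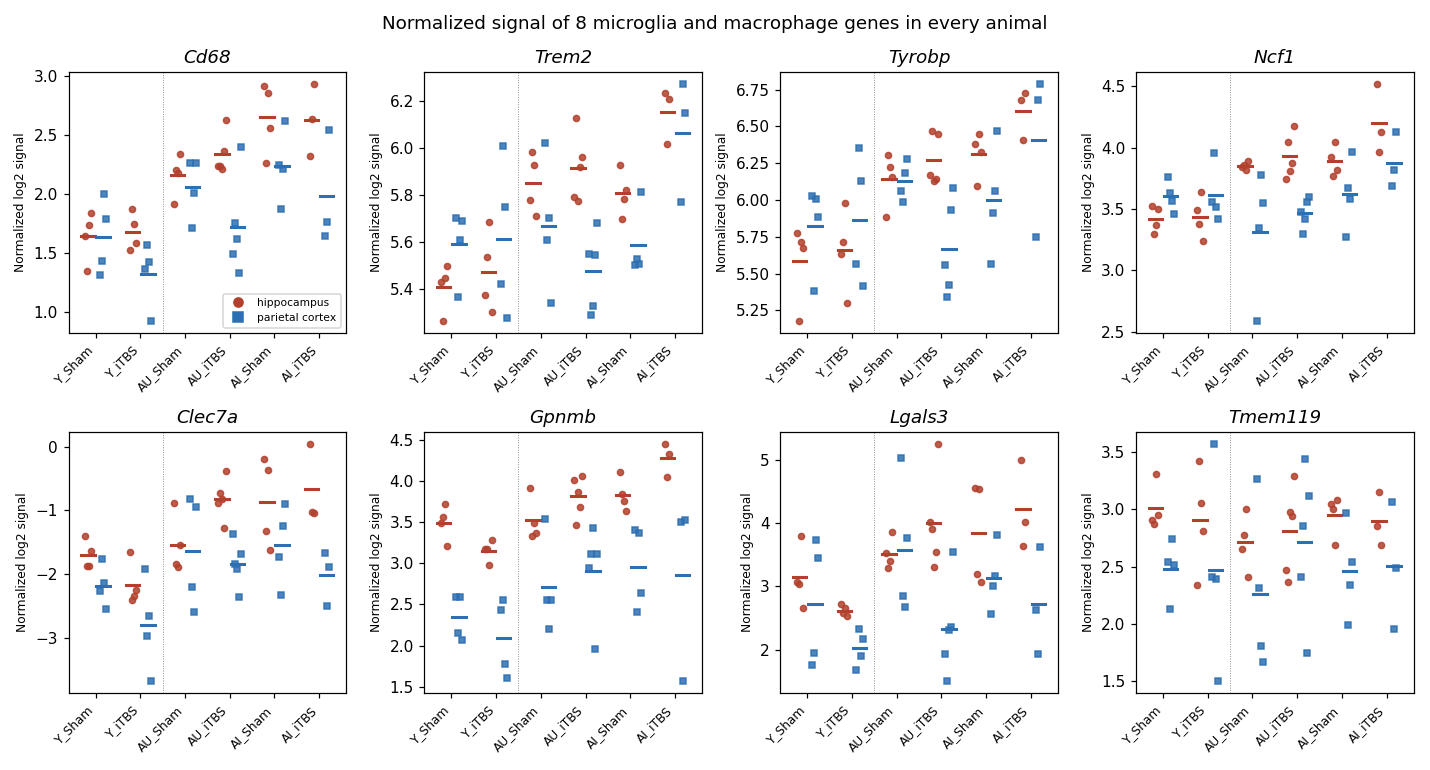
Normalized log2 signal of 8 members in every rat, by group, with circles for hippocampus, squares for parietal cortex and a line at each group mean. In hippocampus Cd68, Trem2 and Ncf1 are higher in all 16 aged rats than in any of the 8 young rats, while Tmem119 overlaps throughout.

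Scan batches and single rats were also looked at for this comparison. The arrays had been scanned in batches, and in hippocampus 15 rats (5 young, 10 aged) fell in batch 1, 8 rats (3 young, 5 aged) in batch 3 and 1 aged rat in batch 2. The plain difference of aged and young means was positive for 12 of 12 called members in batch 1 (0.34 to 0.96) and in batch 3 (0.46 to 1.12). A fit with the scan batch as a block kept 12 of 12 called (0.39 to 0.98), and a fit on batch 1 alone called only Cd68 (adjusted p = 0.0494), with 12 of 12 positive. Leaving out each rat in turn, the number of members called ran from 8 (without young sham 2, young sham 4 or young iTBS 4) to 15 (without AI sham 2). Cd68, Trem2, Tyrobp, Ncf1, Itgb2, Fcer1g and Gpnmb remained called in all 24 of these fits. Itgam was lost in 19 of them, with an adjusted p of up to 0.149. Ctss was lost without young sham 1, 2 or 4 or young iTBS 1, 3 or 4, and Clec7a without young sham 2 or 4 or young iTBS 2, 3 or 4, with adjusted p values up to 0.0680 and 0.0679. Laptm5 was lost without young sham 2 or young iTBS 4 (up to 0.0543), and Fcgr2b without young sham 4 or young iTBS 2 (up to 0.0584). For these batch and leave-out fits the share of all probes called is not given. Their counts show how the fits vary and are not read as results about the members.

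Lists of markers of other cells were read in the same comparison, where 0.511% of all probes were called and 13.3% had an unadjusted p under 0.05. None of the neuron (0 of 10), astrocyte (0 of 9), oligodendrocyte lineage (0 of 12), endothelial (0 of 8), mural (0 of 6), choroid plexus (0 of 6), fibroblast and meninges (0 of 7), T and NK cell (0 of 6), B cell (0 of 2) or red cell (0 of 4) markers tested were called. The fibroblast and meninges list had a median of -0.48 with 0 of 7 positive and 3 at an unadjusted p under 0.05. Of the endothelial markers 1 of 8 was positive and 4 had an unadjusted p under 0.05 (median -0.19), and of the mural markers 1 of 6 was positive and 2 had one (median -0.16). Of the astrocyte markers 8 of 9 were positive and 3 had an unadjusted p under 0.05 (median 0.10), and all 6 choroid plexus markers were positive with 0 under it (median 0.36). The neutrophil and monocyte list also had 0 calls of 5 tested genes, with a median of 0.67 and 3 genes (S100a8, S100a9 and Plac8) higher at an unadjusted p under 0.05, while Ccr2 and Mmp8 were among those too dim to test. The mean level of that list over its 5 tested genes ran from -2.22 to -0.60 in young rats and from -1.51 to -0.27 in aged rats. The part of these lists in the members' differences was not tested.

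Genes of the same pathways that are not members were counted from lists, beside 0.511% of all probes called and 13.3% at an unadjusted p under 0.05. Of 32 further microglial genes tested, 1 was called with age in hippocampus (the phosphatase Ptpn6) and the median was 0.12. Of 27 further genes of activated microglia, 3 were called, the chemokines Ccl3 and Ccl4 and the protease Ctsz, all higher, with a median of 0.22. Of 8 further border macrophage genes, 1 was called (the lectin Clec10a, higher). Of 15 genes of TREM2 and SYK signalling, 1 was called (Ptpn6 again), with a median of 0.030. Of 9 ligands and signals that act on microglia, 0 were called, and 1 had an unadjusted p under 0.05.

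In sham rats alone, 8 AU and AI sham rats against 4 young sham rats, 0 of 33 members were called in hippocampus and 12 were higher and 2 lower at an unadjusted p under 0.05. Over all probes 0.00308% were called, and 8.18% had an unadjusted p under 0.05. The smallest p values were for Cd68 (0.76, SE 0.136, adjusted p = 0.136), Tyrobp (0.64, SE 0.131, adjusted p = 0.191) and Trem2 (0.42, SE 0.0887, adjusted p = 0.203). In all 24 rats these differences were 0.78, 0.71 and 0.49. Among the activation genes, sham rats alone gave 0.18 for Gpnmb, 0.50 for Clec7a, 0.53 for Lgals3, -0.53 for Axl and -0.17 for Cd86. With the stimulated rats included these were 0.54, 0.96, 1.01, -0.29 and 0.18.

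In the parietal cortex 0 of 33 members were called with age in all rats, where 0.402% of probes were called, and 7 were higher at an unadjusted p under 0.05 against 14.3% of probes in either direction. The median difference was 0.21, and it was 0.12 within scan batch 1 and 0.13 within batch 2. Cd68 had the smallest p (0.52, SE 0.149, adjusted p = 0.154). Its cortical levels ran from 0.93 to 2.00 in young rats (median 1.43) and from 1.34 to 2.62 in aged rats (median 1.94), and 8 of 16 aged rats were above the highest young rat. Clec7a followed (0.73, adjusted p = 0.232), then Fcer1g (0.34, adjusted p = 0.267). Gpnmb differed by 0.64 (adjusted p = 0.278), Lgals3 by 0.57 (adjusted p = 0.417) and Axl by 0.62 (adjusted p = 0.444). In sham rats alone 0 were called against 0.104% of probes. At an unadjusted p under 0.05, 1 was higher, against 9.46% of probes in either direction. The smallest p values there were for Cd68 (0.52, adjusted p = 0.467), Cd14 (0.56, adjusted p = 0.537) and Spi1 (0.59, adjusted p = 0.558).

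P2ry12 in cortex rests on the young sham rat 4, which read -0.95 where the other 3 young sham rats read 5.22 to 5.59. The mean of the 8 young rats was 4.72 (SD 2.31) with that rat and 5.53 (SD 0.351, n = 7) without it, against 5.13 (SD 0.269, n = 16) in aged rats. Its difference from aged rats thus changed sign with that rat. In hippocampus the same rat read 5.38, inside the range of the other young rats.

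Whether the age difference itself differed between the regions was tested on the hippocampus minus cortex value of each rat. Again 0 of 34 members were called, against 0.0237% of probes. At an unadjusted p under 0.05, 14 had a larger and 3 a smaller difference in hippocampus, against 15.9% of probes in either direction. Cybb was among the 3, and it passed the filter only through AU iTBS cortex, so its difference is not given. Ncf1 led (0.58, SE 0.151), with Trem2 (0.39, SE 0.112) and Tyrobp (0.50, SE 0.154), each at an adjusted p of 0.298. In cortex the differences of these genes with age were -0.04, 0.10 and 0.21. For Cd68 the cortical difference was 0.52 beside 0.78 in hippocampus. In this comparison 5 of 8 endothelial markers also had an unadjusted p under 0.05 (0 called, median -0.36), and their part was not tested. A difference between the regions in how the members change with age was therefore not shown at the adjusted threshold.

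The second comparison was iTBS against sham, the question for which the animals were treated. In aged hippocampus 0 of 33 members were called and the percentage over all probes was 0. At an unadjusted p under 0.05, 7 members were higher with iTBS and 0 lower, against 2.48% of probes in either direction, and 29 of 33 differences were positive (median 0.17, all probes -0.0007). The SE of a member's difference ran from 0.0736 to 0.358. Gpnmb had the smallest p (0.37, SE 0.111), then Trem2 (0.21, SE 0.0736) and P2ry12 (0.25, SE 0.100), each at an adjusted p of 0.978.

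Gpnmb was read in every rat because it was among the first 3 members in each hippocampal iTBS comparison. Its hippocampal level was 3.91, 3.33, 3.49 and 3.37 in AU sham and 4.02, 3.47, 3.87, 3.68 and 4.06 in AU iTBS rats. It was 4.11, 3.84, 3.75 and 3.63 in AI sham and 4.45, 4.05 and 4.33 in AI iTBS rats. In young rats it was 3.49, 3.56, 3.72 and 3.21 with sham and 3.17, 3.17, 2.97 and 3.29 with iTBS. The treated rats were thus higher on average in both aged groups with overlap, and lower on average in young rats, also with overlap.

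In young hippocampus 0 members were called, the percentage over all probes was 0, and Inpp5d (0.53, SE 0.174), Gpnmb (-0.34, SE 0.154) and Irf8 (-0.44, SE 0.202) had the smallest p values (adjusted p = 0.932). The test of the difference between the aged and the young response gave 0 calls over the members and 0% over all probes, with 3 members at an unadjusted p under 0.05 against 4.29% of probes. These were Gpnmb (0.71, SE 0.190), Clec7a (0.93, SE 0.384) and Irf8 (0.56, SE 0.248), each at an adjusted p of 0.801. All 3 were more positive in aged rats. The hippocampal level of Irf8 was -1.86, -2.22, -2.05 and -2.18 in young sham and -2.30, -2.68, -2.48 and -2.63 in young iTBS rats.

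Within AU hippocampus 0 members were called (0% of probes), and Clec7a (0.73, SE 0.296), Gpnmb (0.29, SE 0.146) and Spi1 (-0.52, SE 0.270) had the smallest p values. Clec7a was -0.88, -1.84, -1.88 and -1.55 in AU sham and -0.88, -0.72, -0.82, -1.27 and -0.38 in AU iTBS rats, so that sham rat 1 lay within the treated range. Within AI hippocampus 0 members were called (0% of probes), with Cd86 (1.22, SE 0.390), Trem2 (0.35, SE 0.111) and Gpnmb (0.44, SE 0.167) first, and the adjusted p was 1.00 when rounded for these and for the AU genes. The 3 AI iTBS rats were above all 4 AI sham rats for Trem2, a gene named for its small p. How many of all probes separate so few rats was not counted. Cd86 was detected in 3 of 3 AI iTBS rats and in 1 of 4 AI sham rats, so its difference is near the limit of detection. In the same AI hippocampal comparison 1.95% of all probes had an unadjusted p under 0.05. Of 7 fibroblast and meninges markers 0 were positive, 5 had an unadjusted p under 0.05 and 0 were called (median -1.09). All 4 red cell markers were negative (median -0.65), 2 of them at an unadjusted p under 0.05. The part of both lists in the members' values was not tested.

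**Figure D3:**
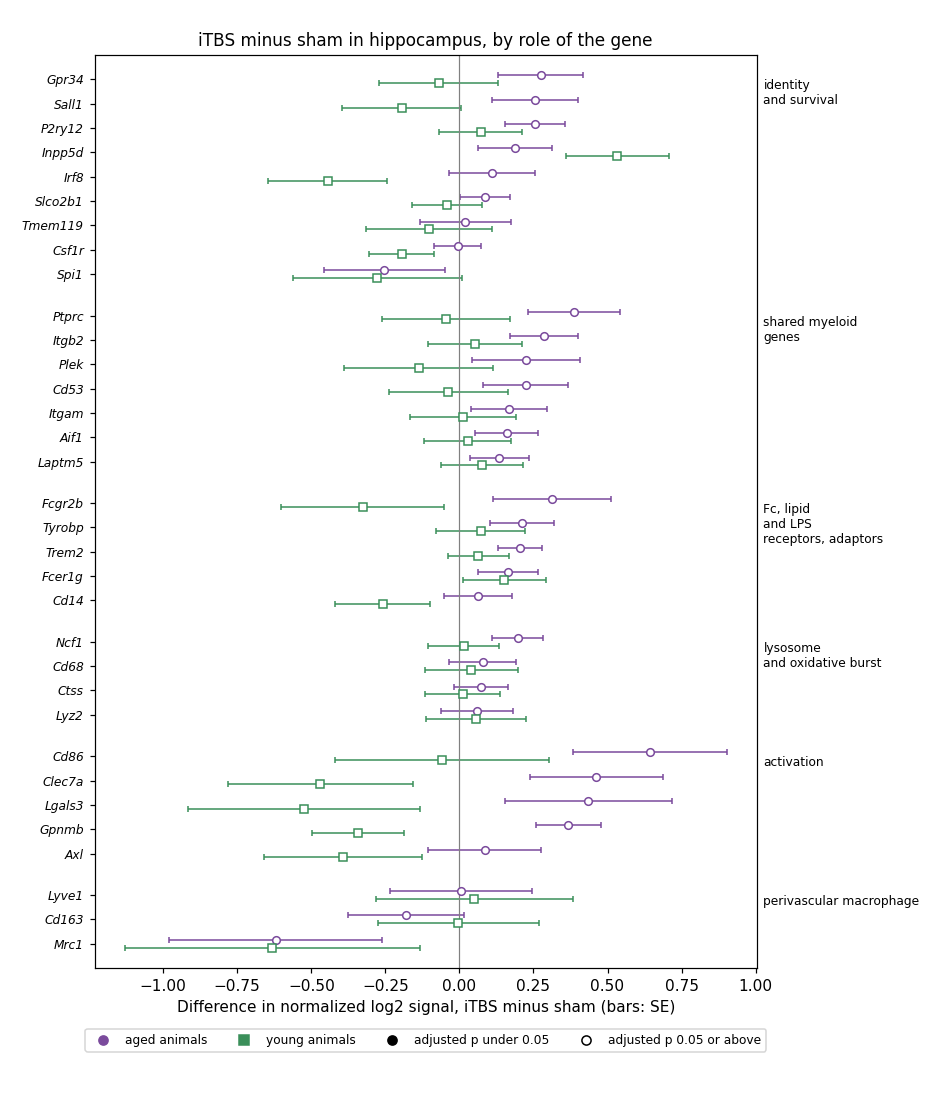
Difference between iTBS and sham in normalized log2 signal in hippocampus for each tested member, with bars of 1 SE, for aged rats (circles) and young rats (squares). No symbol is filled, since 0 members had an adjusted p under 0.05. Gpnmb lies at 0.37 in aged and at -0.34 in young rats.

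In the cortex the same comparisons gave 0 members called in aged, young, AU and AI rats and in the test of aged against young response. Over all probes the percentage was 0 in these except in AI rats, where it was 0.00613. In aged cortex Lgals3 (-0.83, SE 0.381), Cd163 (-0.57, SE 0.308) and Cd68 (-0.30, SE 0.174) had the smallest p values (adjusted p = 1.00). Lgals3 was 3.58 ± 1.08 (SD, n = 4) in AU sham rats, with rat 1 at 5.02, and 2.33 ± 0.758 (n = 5) in AU iTBS rats. It was 2.57, 3.00, 3.17 and 3.81 in AI sham and 2.63, 1.93 and 3.63 in AI iTBS rats, with overlap in both. In AU cortex Lyz2 (-0.83, SE 0.293), Lgals3 (-1.25, SE 0.503) and Tyrobp (-0.46, SE 0.241) came first (adjusted p = 0.578). In AI cortex Gpr34 (0.50, SE 0.170), Trem2 (0.48, SE 0.183) and Ctss (0.53, SE 0.208) came first (adjusted p = 1.00), and Ctss had no value in AI sham rat 1.

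Gpr34, a lysophospholipid receptor of microglia, was 5.08, 5.04 and 5.04 in AI iTBS cortex and 4.51, 4.32, 4.66 and 4.71 in AI sham cortex. It was read because it had the smallest p of the members there. The share of all probes that separate so few rats was not counted. In the same samples the fibroblast and meninges markers were lower with iTBS in aged cortex, with 0 of 7 called and a median of -0.90. There 6 of 7 had an unadjusted p under 0.05, against 2.92% of all probes. In AU cortex alone 4 of 7 had an unadjusted p under 0.05 (median -0.98), against 8.38% of all probes. Their part in the members' values was not tested. In young cortex P2ry12 (1.82, SE 0.873), Cd163 (-0.85, SE 0.428) and Clec7a (-0.62, SE 0.401) came first (adjusted p = 1.00). The P2ry12 value was 0.24 without young sham rat 4, and the test of aged against young response in cortex was led by the same gene (-1.54, SE 1.07, and 0.0398 without that rat), then Lyz2 (-0.48, SE 0.381), again at an adjusted p of 1.00. Cybb was the third, and its difference is not given because it was above background only in the AU iTBS group. The selection rule of the study's methods, which combines a z-ratio with 3 further criteria, picked 0 members in each of the 8 iTBS comparisons to which it was applied. The share of all probes it picked is not given, so these counts are not read as a result about the members.

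The iTBS difference was also set between regions. For young and for aged rats 0 members were called and 0% of probes. Lgals3 (1.27, SE 0.426), Clec7a (0.80, SE 0.288) and Cd68 (0.38, SE 0.154) had the smallest p values in aged rats, each more positive in hippocampus. In young rats these were Cd163 (0.85, SE 0.402), P2ry12 (-1.75, SE 0.889, and -0.15 without young sham rat 4) and Cd68 (0.35, SE 0.214), and the adjusted p was 1.00 when rounded in both ages.

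The third comparison set aged impaired against aged unimpaired rats. In hippocampus 0 of 33 members were called over all aged rats, against 0.00308% of probes. At an unadjusted p under 0.05, 4 members were higher and 0 lower, against 6.69% of probes, and 30 of 33 differences were positive with a median of 0.13 (all probes -0.0088, 47.3% positive). Cd68 was higher by 0.39 (SE 0.113) and Gpnmb by 0.39 (SE 0.111), both at an adjusted p of 0.650, and Inpp5d by 0.32 (adjusted p = 0.704). The Cd68 values given above show the AI sham rats at 2.27 to 2.91 and the AU sham rats at 1.91 to 2.34, with overlap only of AI sham rat 2. In sham rats alone 0 members were called against 0% of probes, and Cd68 (0.49, SE 0.157), Clec7a (0.67, SE 0.312) and Gpnmb (0.31, SE 0.154) came first (adjusted p = 1.00). In the hippocampus of these sham rats 4.05% of all probes had an unadjusted p under 0.05. At that threshold 4 of 7 fibroblast and meninges markers were also higher in AI hippocampus (median 0.83, 0 called). The part of these markers in the members' values was not tested.

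In cortex 0 members were called over all aged rats and in sham rats, and 0% of probes were called. Over all aged rats Gpr34 (0.41, SE 0.113, adjusted p = 0.363), Sall1 (0.35, adjusted p = 0.431) and Ncf1 (0.36, adjusted p = 0.452) were the first. In sham rats these were Ncf1 (0.31, adjusted p = 0.893), Lyz2 (-0.39, adjusted p = 0.939) and Ctss (-0.22, adjusted p = 0.963).

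The mean level of the 33 hippocampal members summarises the groups. It was 2.31 ± 0.0944 (SD, n = 4) in young sham, 2.21 ± 0.0894 (n = 4) in young iTBS, 2.47 ± 0.0972 (n = 4) in AU sham, 2.55 ± 0.166 (n = 5) in AU iTBS, 2.54 ± 0.107 (n = 4) in AI sham and 2.77 ± 0.168 (n = 3) in AI iTBS rats. It describes the list as a whole and was not tested.

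The fourth comparison set hippocampus against cortex within each rat. Of 34 members, 16 (47.1%) were called, against 49.4% of all probes, so the share called was near the background. By direction 15 of the 16 were higher in hippocampus, where 26.3% of all probes were called higher, and 31 of 34 differences were positive (all probes 52.4%). In sham rats alone 6 members were called against 35.9% of probes. With the slide as a random block the number called in all rats fell to 8, and the share of all probes called in that fit is not given.

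Gpnmb was higher in hippocampus in 24 of 24 rats, by 1.04 (SE 0.103, 2.05-fold, adjusted p = 3.78e-08), with a difference per rat of 0.35 to 2.48. Cd14 was higher by 0.77 (SE 0.0988, 1.70-fold, adjusted p = 1.42e-06) in 22 of 24 rats. Clec7a was higher by 0.71 (SE 0.117, adjusted p = 3.29e-05) in 20 of 24, Cd68 by 0.36 (SE 0.0624, adjusted p = 6.96e-05) in 20 of 24 and Itgam by 0.37 (SE 0.0668, adjusted p = 9.76e-05) in 22 of 24. Lgals3 was higher by 0.81 (SE 0.173, adjusted p = 0.000588) in 21 of 24 rats. The integrin Itgb2 (0.30), Sall1 (0.24), Tmem119 (0.40), Ptprc (0.22) and Ncf1 (0.21) were higher too. Csf1r (0.24), Laptm5 (0.18) and Plek (0.16) were called higher as well. Cd86 is 1 of the 15 members called higher, but it was tested through hippocampus, where it was detected in 11 samples, and was above background in only 1 cortical sample, so no difference is given. Ptprc was no longer called without AI iTBS rat 1 (0.17).

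Inpp5d was the exception. This gene, which encodes the lipid phosphatase SHIP1, was lower in hippocampus in 24 of 24 rats, with a difference of -1.42 (SE 0.0925, adjusted p = 4.21e-11), a 2.68-fold lower signal. Its level ran from 1.87 to 2.88 in young and from 1.89 to 2.92 in aged hippocampus, and from 3.00 to 4.13 in young and from 2.68 to 4.47 in aged cortex. Per rat the difference ran from -2.12 to -0.48. In sham rats the same call was made (-1.48), as were those of Gpnmb (0.94), Cd14 (0.64), Itgam (0.36) and Tmem119 (0.49). Cd86 was the other sham call, with 0 sham cortical samples above background.

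Lists of other genes were counted in the same comparison, where 49.4% of all probes were called and 26.3% were called higher in hippocampus. A list with a share near these values is not read as a result about its cells. Of the choroid plexus list 5 of 6 tested genes were higher in hippocampus, with a median of 1.74, and its mean level over 6 genes in hippocampus ran from -0.27 to 3.80. Of the oligodendrocyte lineage list 10 of 12 were called higher and 1 lower, and of the astrocyte list 5 of 9 higher and 1 lower. Other lists were lower in hippocampus, with 6 of 8 endothelial markers (median -0.32), 3 of 6 mural markers (median -0.27) and 4 of 10 neuron markers called lower, and 1 neuron marker called higher. Of the fibroblast and meninges list 2 of 7 were called higher and 3 lower. Their part in the members' differences was not tested. Of the further microglial genes 18 of 33 were called, 14 of them higher, and of 27 further genes of activated microglia 18 were called, 14 of them higher.

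**Figure D4:**
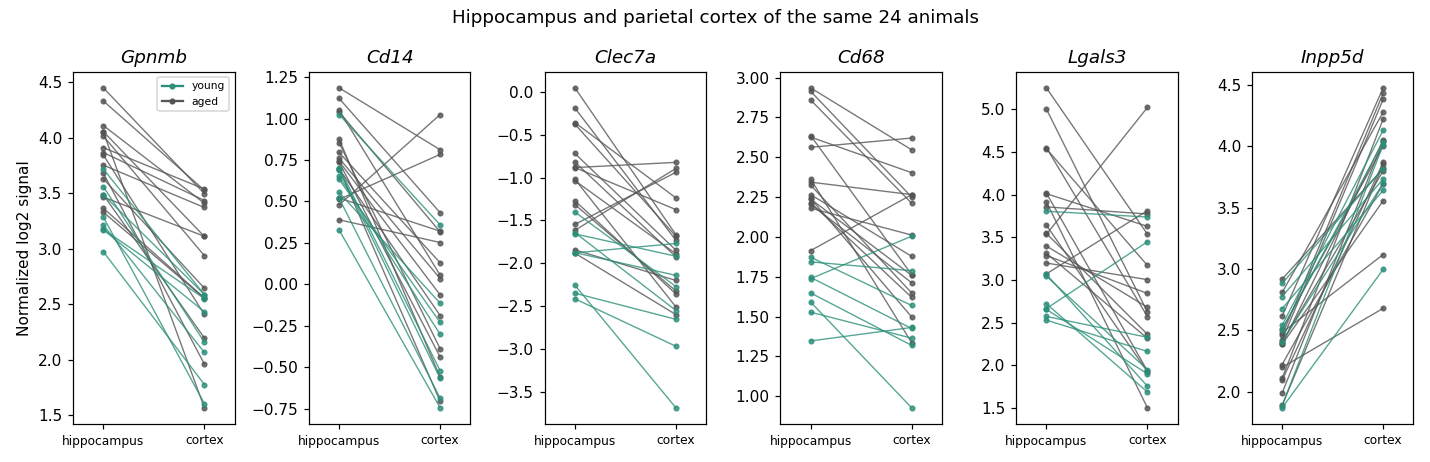
Normalized log2 signal of 6 members in hippocampus and parietal cortex, with a line joining the 2 samples of each of 24 rats, green for young and grey for aged. Gpnmb falls from hippocampus to cortex in every rat, and Inpp5d rises in every rat.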

How the data were processed

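Total RNA of hippocampus and parietal cortex had been hybridised by the authors to Agilent 1-colour rat arrays, of which 56 were read (48 first arrays, 7 repeats and 1 array placed in no group). The deposited values used here were the processed signal intensity of each spot from Feature Extraction 12.0.3.1, and the authors' z-scores (a score per probe, made from log values in DIANE 6.0 per the labels) served as an alternative. They differed from the z-scores computed here by at most 0.005.

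Control spots and outlier spots (267 to 1448 per array) were left out, spots of a probe were averaged, and log2 intensity was z-transformed per array and returned to a log2 scale with the average array SD (4.08). An animal's repeats were averaged into its value. Of 45598 probes, 46.3% took a symbol from their RefSeq accession (93.9% of NM accessions). Tested probes had at least 3 of 24 animals well above background and at least 20 with a value. In limma 3.58.1 (R 4.3.3), 6 group means per region were fitted to 24 animals with eBayes, and within-animal differences were fitted for region comparisons, with Benjamini-Hochberg adjustment over all tested probes.

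Genes were named by a rule: those called, up to 12 per comparison, otherwise the 3 of smallest p, plus the activation genes. The members, the lists and the tests were chosen with earlier results of these data known. The normexp alternative used median signals, because the mean signal column was not in the files used here. Pathway and cell type lists were described by counts and medians only, and some of their genes are not reported here. The fits were tested on simulated data. The labels do not say how many dissections or extractions lie behind a sample, so p-values measure the spread between these animals.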

Additional observations from a re-analysis of the deposited data

Results flagged for a closer look

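In 259 groups of 4 or 5 animals, 11 values stood apart from the others of their group by Dixon's test, which chance alone does in about 1 in 20 groups. The cortical P2ry12 of young sham rat 4 was -0.95 where the next value was 5.22, and the cortical Sall1 and Fcgr2b of the same rat were 2.16 and 1.56 where the next values were 2.71 and 2.30. In young sham rat 2, Tyrobp was 5.18 in hippocampus (next 5.68) and Laptm5 was 5.70 in cortex (next 6.13).

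Cd14 in hippocampus was 1.02 in young sham rat 3 (next 0.70) and 1.19 in AU iTBS rat 5 (next 0.74), both the highest of their group. Hippocampal Cd163 was highest in AU sham rat 3 at -0.55 (next -1.03), and Axl was highest in AI sham rat 2 at -0.79 (next -1.80). Hippocampal Irf8 was lowest in AU iTBS rat 3 at -2.82 (next -2.12), and cortical Trem2 was highest in AI sham rat 4 at 5.81 (next 5.53).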

How the results depend on the processing

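The alternatives changed the scaling, the background correction, the source of values, the use of repeats, the filter on dim probes, the slide and scan batch, the replicate block, the samples in the fit, the probe of a gene and the weights, and left out each animal in turn. The median difference of the members moved by less than 1 SD in every alternative run. That SD was the median residual SD of a single member, a wide limit beside most of these medians. Before animals were left out in turn, the median for cognitive status in sham cortex ran from -0.13 to 0.12. For iTBS in young cortex it ran from -0.061 to 0.12, and for iTBS in aged cortex from -0.0045 to 0.13. For the aged against the young iTBS response in cortex it ran from -0.070 to 0.14. The sign of the median turned in each of these comparisons. For age in hippocampus it ran from 0.27 to 0.43. Without each replicate in turn, the members called with age in hippocampus ranged from 8 to 15, the members called between regions from 12 to 18 in all rats and from 5 to 9 in sham rats, and 0 were called in every other comparison.

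Counts moved by over 1.5 times in these settings. With the slide as a random block, 8 members were called between regions in all rats. With the scan batch as a fixed block, 12 were called between regions in sham rats. Within scan batch 1, 1 member was called with age in hippocampus, on 15 rats in place of 24. With a trended, robust fit and array weights, the counts were 8 for age in sham hippocampus, 4 for age in sham cortex, 11 for age in cortex, 5 for iTBS in AI cortex, 14 for cognitive status in aged cortex, 12 for region in sham rats and 12 for age by region. The estimate of those weights in hippocampus did not converge, and weights ran from 0.316 to 8.39 there and from 0.283 to 8.79 in cortex. With gene-by-gene array weights, an alternative chosen after seeing the data, the same counts were 6, 4, 10, 1, 8, 12 and 11. These 2 weighted fits called 8208 and 6954 of 32613 probes with age in cortex. The cause was not tested. For the other counts of members in this section the share of all probes called is not given. They show how the fits vary and are not read as results about the members.

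The sign turned for Cybb in the test of aged against young iTBS response in cortex within scan batch 1 (-0.12, where only AU iTBS rats carried this gene through the filter on dim probes), for Cd68 with iTBS in aged cortex with array weights (0.012), and for P2ry12 in the test of aged against young response in cortex without young sham rat 4 (0.0398), the highest of -2.14 to 0.0398 over the fits without each replicate.

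With the replicate number as a block, 13 members were called with age in hippocampus and 0 in the other comparisons within a region. A region fit that ignored the pairing by animal, with the regions of a rat as separate samples, called 14 in all rats and 7 in sham rats. The replicate numbers do not mark a shared litter or day in the labels. Rats of different groups with the same number deviated together only weakly (median r of 0.063 in hippocampus, from -0.29 to 0.42, and 0.082 in cortex, from -0.28 to 0.45, over 55 pairs each), and 8 and 10 of 24 rats correlated best with a rat of their own number, so they were not taken as pairs. The number of arrays and the signal over background limit Cst7, Cybb, Cd86 and Mrc1.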

Other observations

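The hippocampal array whose labels disagree about its group gave a mean level of 2.41 over the 33 tested members. Its Cd68 level was 2.26, where the highest young rat was 1.87 and the lowest aged rat 1.91. Its Trem2 level was 5.83, where those limits were 5.68 and 5.70, and its Ncf1 level was 3.90, where they were 3.64 and 3.75. Tyrobp was 6.09 and Clec7a was -0.29 on that array. It entered no comparison.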
